A study of Mus musculus with 8 samples.

Results

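Pik3cd, Pik3r1, Pik3ap1, Irs2, Inpp5d, Pik3ip1, Akt1, Foxo1 and Foxo3 are 9 genes of the pathway that runs from phosphoinositide 3-kinase (PI3K) through the kinase AKT to the FOXO transcription factors. They were chosen by symbol, and each symbol matched 1 row, so they made up 9 of the 22298 genes in the mRNA table. The study followed mRNAs, long non-coding RNAs, circular RNAs and microRNAs through B-cell development in mouse bone marrow. The cells came from wild-type female C57BL/6 mice aged 8 to 10 weeks and were sorted by FACS. The gate was B220+IgM-CD43+ for pro-B, B220+IgM-CD43- for pre-B, B220+IgM+CD43- for immature B and B220hiIgM+CD43- for mature B cells. Each pool mixed the cells of 3 mice, and each stage had 1 RNA library and 1 small RNA library, so no comparison below has a replicate check and no p-value is given. In bulk samples such as these, fewer cells of a type and less RNA per cell cannot be told apart.

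PI3K phosphorylates the lipid PIP2 in the plasma membrane to PIP3, which recruits kinases such as AKT and BTK. Active AKT phosphorylates FOXO factors, which then leave the nucleus, so that high PI3K activity silences the genes that FOXO factors activate. In early B cells FOXO1 drives the genes of V(D)J recombination and the interleukin-7 receptor, and in mature B cells tonic PI3K signalling downstream of the B-cell receptor maintains survival.

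The RNA libraries differed in their mRNA counts. The mRNA table summed to 867920 counts in pro-B, 240231 in pre-B, 223495 in immature B and 849350 in mature B cells, and mRNA made up 23.7%, 6.48%, 6.48% and 23.5% of the mRNA and lncRNA counts together. A count of 3, taken as the floor where a gene had no count, was worth 3.46, 12.5, 13.4 and 3.53 counts per 1000000 counts (CPM) of the mRNA total. The marker lists of pro-B, immature B and mature B cells each had their highest sum in the library of that label, at 2081, 9504 and 4427 CPM. The 4 pre-B markers did not, with sums of 1278 CPM in pro-B, 1066 in pre-B, 576 in immature B and 15.2 in mature B cells. Single markers also departed from their list, such as Cd93, a marker of immature B cells, at 429 CPM in pro-B and 94.0 in immature B cells. Dntt, the terminal transferase of pro-B cells, had 845 counts in pro-B and 0 in the other 3 libraries, and Fcer2a, the low-affinity IgE receptor of mature B cells, had 358 counts in mature B and 0 elsewhere. Genes of T and NK cells summed to 178 counts in pro-B, 0 in pre-B and immature B and 5 in mature B cells, with 5 of 6 detected in pro-B. All 5 myeloid genes were detected in all 4 libraries, with sums between 195 and 812 counts, or between 790 and 1049 CPM.

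Levels of the 9 genes are given as counts, as CPM with exact Poisson 95% intervals, and, where different genes are compared, as the FPKM deposited by the authors, which is divided by transcript length. The paper scales FPKM to all fragments mapped to reference genes, whereas CPM here is scaled to the mRNA total. The intervals address counting error only and leave out the variation between mice. They treat each count as a separate molecule. No molecular identifiers were described, so the intervals may be too narrow even for counting error.

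Pik3cd encodes p110delta, the class I catalytic subunit typical of leukocytes. It had 347 counts in pro-B, 58.3 in pre-B, 28.7 in immature B and 216 in mature B cells. Its CPM was 399 (359 to 444) in pro-B, 243 (183 to 312) in pre-B, 128 (86.9 to 186) in immature B and 254 (222 to 291) in mature B cells. The level was highest in pro-B and lowest in immature B cells, and the interval of pre-B cells overlapped those of immature B and mature B cells. Among the 4 class I catalytic genes, Pik3cd held 51.1%, 62.5%, 48.2% and 59.1% of the summed FPKM from pro-B to mature B cells. Its share was the highest in every library, but in immature B cells it rested on 28.7 counts against 28.1 for Pik3cg. There the FPKM interval of Pik3cd (1.09 to 2.34) included the 1.24 of Pik3cg. Pik3cg (p110gamma) came second in the first 3 stages with 34.4%, 27.4% and 37.1%, and in mature B cells Pik3ca (p110alpha) came second with 21.0%.

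Pik3r1 encodes p85alpha and its shorter forms, the regulatory subunits that stabilise the class IA catalytic subunits and hold them inactive until a receptor is engaged. It had 225 counts in pro-B, 18.8 in pre-B, 12.3 in immature B and 113 in mature B cells. Its CPM was 259 (226 to 295), 78.4 (47.6 to 124), 55.0 (27.7 to 93.8) and 133 (110 to 160) in the same order. Pro-B cells stood above all other stages, and the intervals of pre-B and immature B cells overlapped. Of the FPKM summed over Pik3r1, Pik3r2 and Pik3r3, Pik3r1 held 75.0% in pro-B, 23.0% in pre-B, 9.2% in immature B and 27.0% in mature B cells. Pik3r2 (p85beta) held 23.4%, 52.0%, 90.8% and 67.3%. These shares rest on FPKM values that did not track the counts of Pik3r2, whose 34 counts in pro-B and 41 in mature B cells were listed as 2.0 and 7.5 FPKM.

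Pik3ap1 encodes BCAP, the adaptor that recruits PI3K when the B-cell receptor signals. It had 879 counts in pro-B, 230 in pre-B, 153 in immature B and 413 in mature B cells. Its CPM was 1012 (947 to 1082), 957 (838 to 1089), 684 (580 to 802) and 487 (440 to 535). The levels stepped down from pre-B to immature B to mature B cells with intervals that did not overlap, while pro-B and pre-B overlapped. On FPKM the last step was reversed, from 6.48 in immature B to 17.4 in mature B cells. Bank1, a related scaffold of B cells, ran the other way with 43, 10, 48 and 1125 counts. Of the FPKM of these 2 scaffolds, Pik3ap1 held 93.4%, 92.8%, 69.9% and 20.9% from pro-B to mature B cells.

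Irs2 encodes the insulin receptor substrate that passes signals of insulin, IGF1 and some cytokine receptors to PI3K. It had 192 counts in pro-B, 13.6 in pre-B, 0 in immature B and 1439 in mature B cells. Its CPM was 221 (191 to 255), 56.6 (31.9 to 97.8), 0 (up to 16.5) and 1694 (1608 to 1784). It was the member with the widest range, and no pair of neighbouring stages overlapped. Irs1, its paralogue, had 38, 32, 14 and 0 counts, so it was listed at 0 where Irs2 was highest and had counts where Irs2 had none.

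Inpp5d encodes SHIP1, the phosphatase that removes the 5-phosphate of PIP3 and restrains B-cell receptor signalling. It had 651 counts in pro-B, 70.5 in pre-B, 72.5 in immature B and 465 in mature B cells. Its CPM was 751 (694 to 810), 293 (227 to 368), 324 (256 to 411) and 548 (499 to 600). Pre-B and immature B cells overlapped and lay below both other stages. The lncRNA table holds a further transcript under this symbol, ENSMUST00000164592, with 136, 13.8, 17.2 and 222 counts, so the ranks of pro-B and mature B cells were exchanged there.

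Pik3ip1 encodes a membrane protein that binds the p110 catalytic subunits and restrains PI3K. It had 88 counts in pro-B, 32.6 in pre-B, 34 in immature B and 88 in mature B cells. Its CPM was 101 (81.3 to 125), 135 (94.6 to 193), 152 (105 to 213) and 104 (83.1 to 128). All 4 intervals overlapped, which was true of no other member, and the point values were highest in the middle stages.

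Akt1 encodes the broadly used form of the AKT kinase. It had 288 counts in pro-B, 67 in pre-B, 46 in immature B and 108 in mature B cells. Its CPM was 332 (295 to 372), 279 (216 to 354), 206 (151 to 275) and 127 (104 to 154). Each stage lay below the one before, and each interval overlapped that of its neighbour, but pro-B did not overlap immature B or mature B cells. On FPKM, too, the last step was reversed, from 4.94 to 12.4. Akt2 had 103, 32, 32 and 93 counts, which differed less between the stages as shares of the mRNA total. Of the FPKM of Akt1 and Akt2 together, Akt1 held 76.0% in pro-B, 69.7% in pre-B, 56.7% in immature B and 49.4% in mature B cells. The FPKM of Akt2 did not track its counts either, at 8.68 for 103 counts in pro-B and 12.7 for 93 counts in mature B cells.

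Foxo1 encodes the FOXO factor most needed for early B-cell development. It had 199 counts in pro-B, 32.3 in pre-B, 24.2 in immature B and 218 in mature B cells. Its CPM was 229 (199 to 263), 135 (91.1 to 188), 108 (68.8 to 160) and 256 (224 to 293). Pro-B and mature B cells overlapped each other and lay above the overlapping pair of pre-B and immature B cells. Foxo3, a second FOXO factor with roles in quiescence and apoptosis, had 228 counts in pro-B, 19 in pre-B, 30 in immature B and 223 in mature B cells. Its CPM was 263 (230 to 299), 79.1 (47.6 to 124), 134 (90.6 to 192) and 263 (229 to 299), which gave the same split of the stages. Foxo4 had 91, 58, 68 and 124 counts. As a share of the mRNA total it was thus higher in pre-B and immature B than in pro-B and mature B cells, unlike Foxo1 and Foxo3. Its FPKM was 5.99, 3.19, 4.09 and 9.08. By FPKM, Foxo3 exceeded Foxo1 in all 4 libraries, although their intervals overlapped in pre-B cells. Foxo3 held 48.6%, 23.4%, 25.7% and 37.3% of the FPKM of the FOXO genes, against 21.3%, 13.0%, 8.5% and 21.6% for Foxo1. Foxo4 held 63.7% and 65.8% in pre-B and immature B cells, and Foxo6 was listed at 0 in every library.

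**Figure D1:**
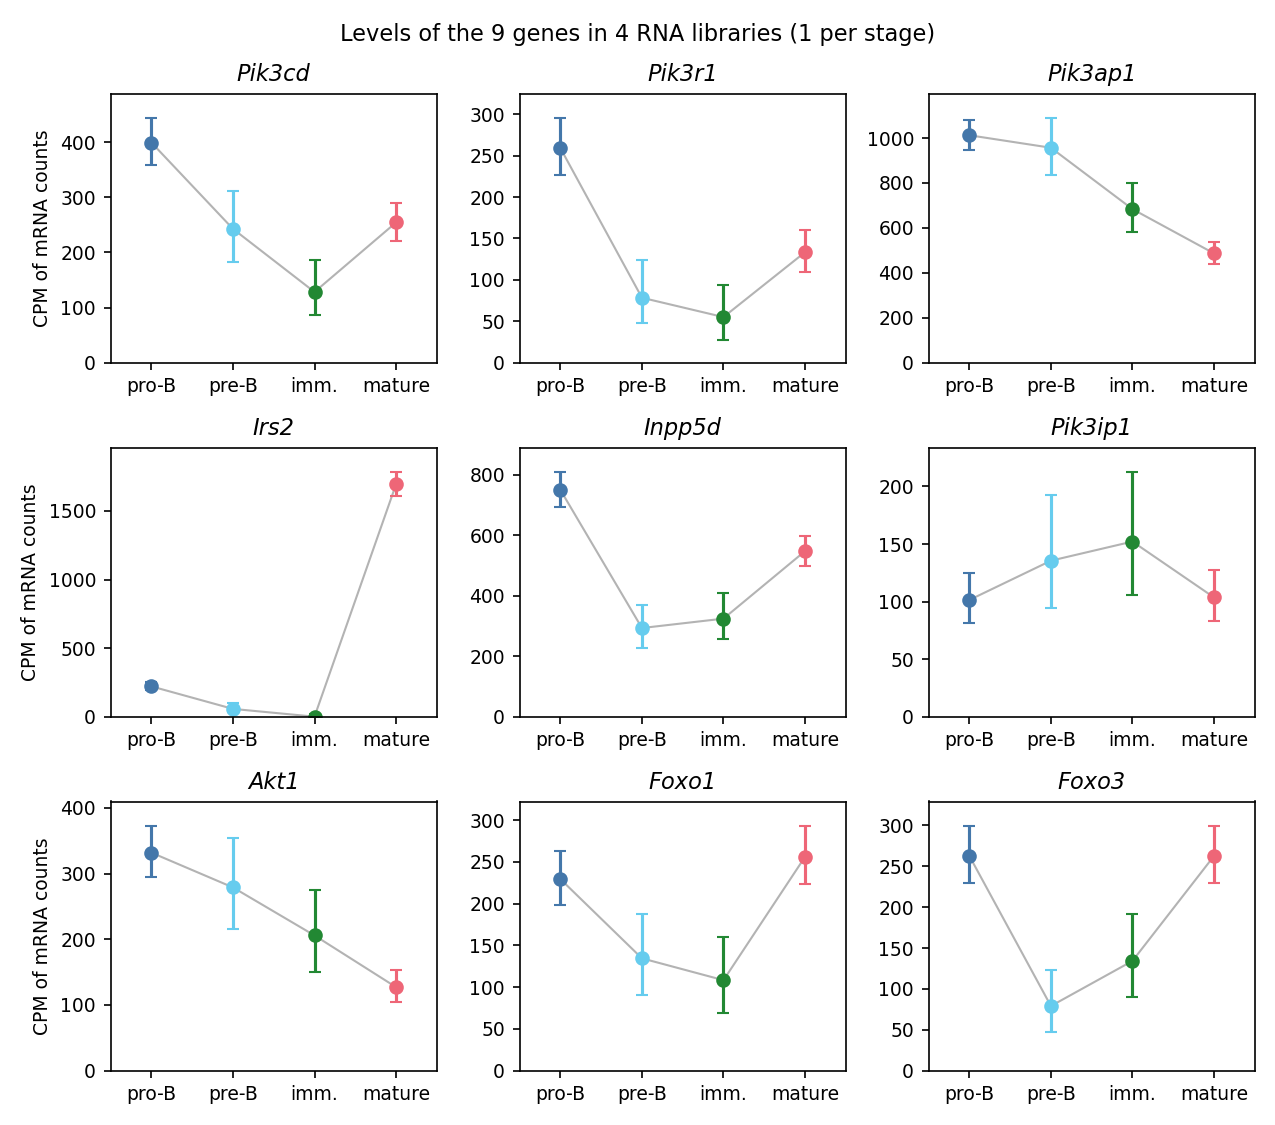
CPM of the mRNA total for each of the 9 genes (one panel each, linear axis from 0) in the pro-B, pre-B, immature (imm.) and mature B libraries, with bars for exact Poisson 95% intervals. Irs2 reached 1694 CPM in mature B cells from 0 counts in immature B cells, while Pik3ap1 and Akt1 were lower at each later stage on this scale, though not on FPKM in the last step.

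The order of the members by FPKM differed between the stages. In pro-B cells it ran from Pik3ap1 (36.1) and Inpp5d (34.9), whose intervals overlapped, through Akt1 (27.4), Pik3cd (15.6), Pik3ip1 (10.45), Foxo3 (9.67), Pik3r1 (6.35) and Irs2 (5.57) to Foxo1 (4.23). Pik3ap1 and Akt1 led in pre-B (8.93 and 7.24 FPKM) and immature B cells (6.48 and 4.94 FPKM), with overlapping intervals in both. In mature B cells Irs2 led with 43.1 FPKM, ahead of Inpp5d (30.7) and Pik3ap1 (17.4), none of which overlapped the next. Irs2 was therefore eighth of the members in pro-B, last in pre-B and immature B and first in mature B cells, although in the first 2 stages its interval overlapped that of its neighbours. Pik3cd, Akt1, Pik3ip1 and Foxo3 formed the middle of the mature B order with 12.7, 12.4, 9.10 and 8.21 FPKM, each overlapping its neighbour.

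The stages were then compared on CPM, and a gene was called at a ratio of 2-fold or more with at least 10 counts in 1 of the 2 libraries. The interval of a ratio is an exact Clopper-Pearson 95% counting interval. The 4 comparisons share libraries, so they are not independent of each other. The scale matters here. Across all genes compared that had counts in both libraries, the median log2 ratio of pre-B to pro-B cells was -0.37 on CPM and -2.18 on FPKM, and that of mature B to immature B cells was 0.21 on CPM and 1.99 on FPKM. For immature B against pre-B cells it was -0.02 and 0.02, and for mature B against pro-B cells -0.16 and -0.15. The calls below are on CPM with no further centring.

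Between pro-B and pre-B cells, 4 of the 9 genes were lower by 2-fold or more on CPM and none was higher. Irs2 was 3.90-fold lower in pre-B cells (2.21 to 7.07), Foxo3 3.32-fold (2.08 to 5.62), Pik3r1 3.30-fold (2.05 to 5.55) and Inpp5d 2.56-fold (2.01 to 3.34). Foxo1 was 1.71-fold lower (1.18 to 2.58) and Pik3cd 1.64-fold lower (1.25 to 2.23), both under the threshold, and both were slightly higher, with log2 differences of 0.08 and 0.13, once the median of genes of like transcript length was subtracted. The ratios of Pik3ap1, Akt1 and Pik3ip1 had intervals that included 1. Of the 9152 genes compared, 31.4% were lower and 14.8% higher by 2-fold or more, and the median log2 CPM ratio was -0.77 for the members and -0.44 for all genes, with genes at 0 set to the floor. On FPKM all 9 members were lower by 2-fold or more, as were 81.5% of all genes. Pik3ip1, which was 1.34-fold higher on CPM (0.88 to 2.04), was lower on FPKM with a log2 ratio of -1.93.

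From pre-B to immature B cells, Irs2 was the only member called. It went from 13.6 counts to 0 and was at least 4.22-fold lower against the floor of 3 counts, with a limit of 3.09-fold for the 95% counting interval. Of the 5838 genes compared, 20.2% were lower and 18.9% were higher. The median log2 CPM ratio was -0.44 for the members and -0.02 for all genes. Pik3cd was 1.89-fold lower (1.17 to 3.01) and Pik3ap1 1.40-fold lower (1.13 to 1.73), with intervals that excluded 1. Foxo3 was 1.70-fold higher with an interval of 0.92 to 3.19, and the intervals of Pik3r1, Inpp5d, Pik3ip1, Akt1 and Foxo1 also included 1. Pik3r1, with 18.8 and 12.3 counts, had a ratio of 0.70 (0.30 to 1.47) on CPM and was higher on FPKM, so no difference was detectable at this depth.

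From immature B to mature B cells, Irs2, Pik3r1 and Foxo1 were higher by 2-fold or more on CPM and no member was lower by as much. Irs2 was at least 126-fold higher against the floor of 3 counts, with a limit of 103-fold for the 95% counting interval. Pik3r1 was 2.42-fold higher (1.36 to 4.94) and Foxo1 2.36-fold higher (1.56 to 3.81). Pik3cd at 1.98-fold (1.33 to 2.997) and Foxo3 at 1.957-fold (1.33 to 2.97) lay just under the threshold, and Inpp5d was 1.69-fold higher (1.31 to 2.18). Akt1 was 1.62-fold lower (1.12 to 2.31) and Pik3ap1 1.41-fold lower (1.16 to 1.70) in mature B cells on CPM. Both were higher on FPKM, by 2.51-fold and 2.69-fold. Pik3ip1 was likewise 1.47-fold lower on CPM (0.96 to 2.204) and 3.15-fold higher on FPKM. Among the 8363 genes compared, 26.7% were higher and 18.1% lower on CPM, and the median log2 CPM ratio was 0.97 for the members and 0.27 for all genes. On FPKM all 9 members were higher, with Irs2 listed at 0 in immature B cells, as were 77.3% of all genes.

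The endpoints, pro-B and mature B cells, had nearly equal mRNA totals, and the median of all genes was about the same on CPM and FPKM. Irs2 was 7.67-fold higher in mature B cells (6.58 to 8.95), against 13.2% of the 9634 genes compared that were higher by 2-fold or more. Akt1 was 2.61-fold lower (2.08 to 3.29) and Pik3ap1 2.08-fold lower (1.85 to 2.35), against 24.2% of all genes lower. With TMM factors and DESeq2 size factors Pik3ap1 fell short of 2-fold (log2 ratios of -0.91 and -0.88), which left Akt1 as the only member lower by that much. Pik3r1 was 1.94-fold lower on CPM (1.55 to 2.46) and 2.11-fold lower on FPKM. Pik3cd was 1.57-fold lower (1.32 to 1.87) and Inpp5d 1.37-fold lower (1.21 to 1.55). The ratio of Inpp5d leaves out its transcript among the lncRNAs, which had 136 counts in pro-B and 222 in mature B cells. Both FOXO factors were close to their pro-B level, Foxo1 at 1.12-fold (0.92 to 1.36) and Foxo3 at 1-fold (0.83 to 1.21), as was Pik3ip1 at 1.02-fold (0.75 to 1.39). The median log2 CPM ratio was -0.45 for the members and -0.19 for all genes. The 4 genes of plasmacytoid dendritic cells summed to 627, 36, 46.2 and 162 counts, or 722, 150, 207 and 191 CPM. Of these counts Tcf4 held 363.5 in pro-B and 122 in mature B cells. Siglech had 105 counts in pro-B, and Siglech and Klk1 had 0 in mature B cells. Among the genes of T and NK cells, Gzma had 106 counts in pro-B and 0 in mature B cells. The part of such cells in the ratios above was not tested.

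**Figure D2:**
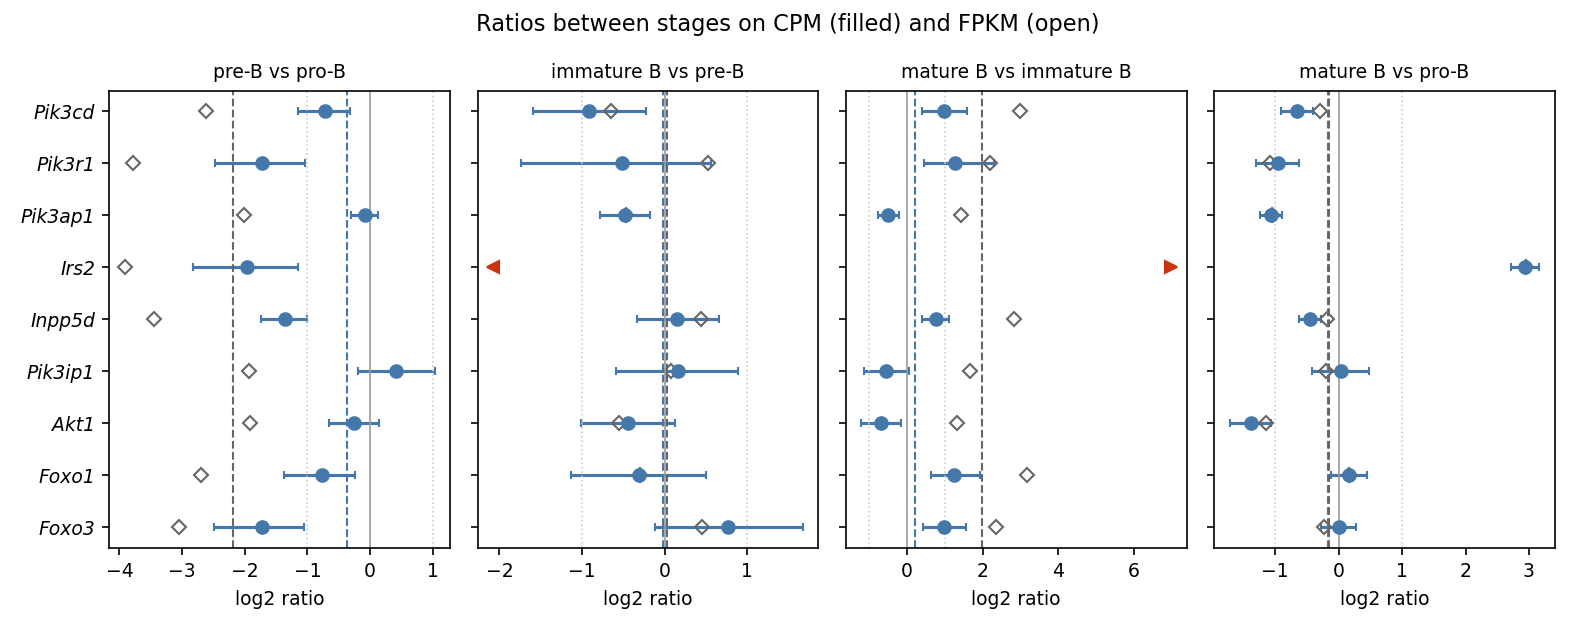
Log2 ratios of the 9 genes in the 4 comparisons on CPM (filled circles with 95% counting intervals) and on FPKM (open diamonds), with the medians of all genes with counts in both libraries as dashed lines (blue for CPM, grey for FPKM) and 2-fold as dotted lines. Red triangles mark Irs2 where immature B cells had 0 counts and the ratio is a bound; in the comparison of mature B with pro-B cells both scales placed Irs2 near 2.95.

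The ratios of pre-B to pro-B cells also followed transcript length. Length was read from the counts per FPKM of each gene, which rise with the length of its transcript, and genes were split into 4 classes of equal size. The median log2 CPM ratio of pre-B to pro-B cells was -0.03 in the class of shortest transcripts, then -0.48, -0.63 and -0.85 in the longest. For mature B against immature B cells it ran from -0.08 through 0.24 and 0.44 to 0.73. The members were mostly long: Foxo1 lay at the 98.6th percentile of counts per FPKM, Pik3r1 at the 96.1st, Irs2 at the 95.4th, Pik3ap1 at the 86.4th, Foxo3 at the 86.2nd, Pik3cd at the 77.4th and Inpp5d at the 69.0th. Akt1 and Pik3ip1 lay at the 33.0th and 32.1st. After the median of the same class was subtracted, a step chosen after the data had been seen, Irs2 was the only member still lower by 2-fold in pre-B cells, against 20.2% of 7329 genes. In mature against immature B cells Irs2 was then the only member higher, against 20.2% of 7131 genes, and Pik3ap1 was the only member lower, with a log2 difference of -1.22, against 22% of those genes. The calls of mature B against pro-B cells remained Irs2 higher with Akt1 and Pik3ap1 lower, and their log2 differences were 2.99, -1.23 and -1.01, against 13% of 7416 genes higher and 15.7% lower.

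**Figure D3:**
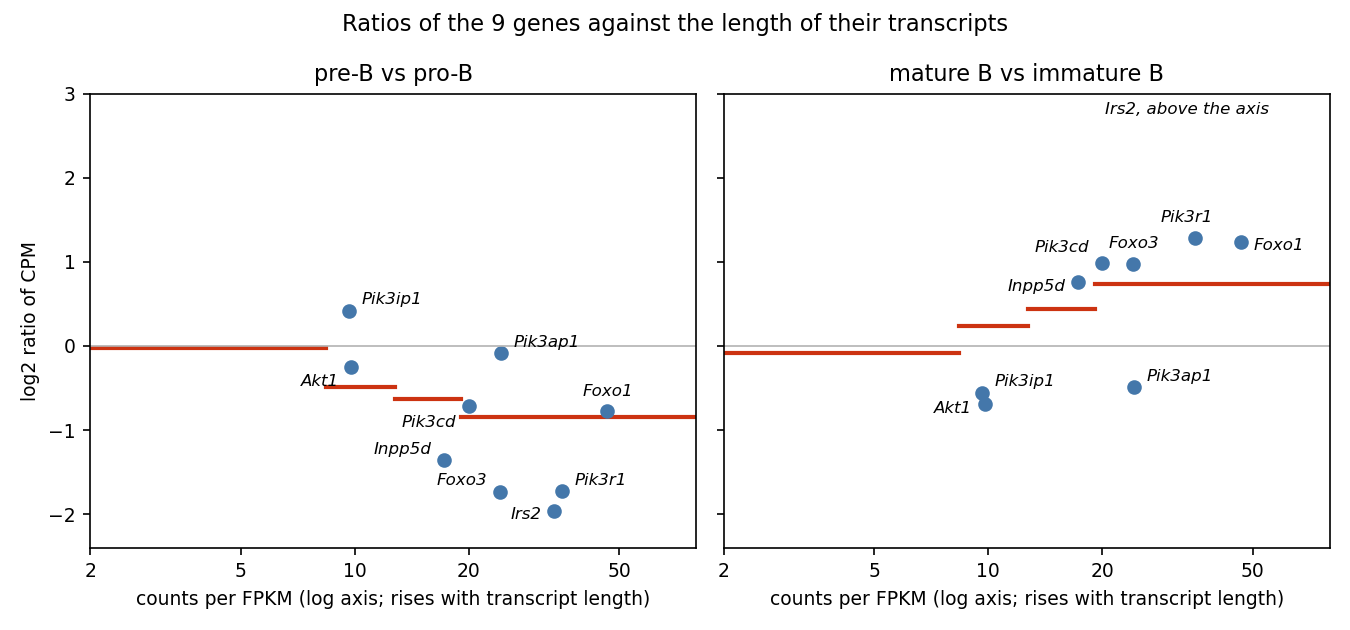
Log2 CPM ratio of the 9 genes (points) against counts per FPKM (log axis), a measure that rises with transcript length, for pre-B over pro-B and mature B over immature B cells. Red lines are the medians of all genes in each length class, which fall from -0.03 to -0.85 on the left and rise from -0.08 to 0.73 on the right; Irs2 lies above the axis on the right.

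Count ratios of 2 genes within a library do not depend on the scaling of that library. The pairs below were chosen after their values had been seen. Foxo1 had 0.69 counts for each Akt1 count in pro-B, 0.48 in pre-B, 0.53 in immature B and 2.01 in mature B cells. The ratio in mature B cells was 2.91 times that in pro-B cells (95% counting interval 2.17 to 3.90). Foxo3 per Akt1 was 2.61 times its pro-B value (1.956 to 3.48), and Irs2 per Pik3ap1 was 16.0 times its pro-B value (13.2 to 19.3). Thus the transcripts of both FOXO factors stood higher relative to Akt1 in mature B than in pro-B cells. Pik3cd per Inpp5d was 0.87 times its pro-B value (0.71 to 1.07). This last ratio leaves out the Inpp5d transcript among the lncRNAs, with 136 counts in pro-B and 222 in mature B cells.

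The other genes of the pathway were taken in 10 lists by role, 122 genes in all, and counted between mature B and pro-B cells. Of the 112 that could be compared, 11 were higher and 26 lower by 2-fold or more, which is 9.82% and 23.2% against 13.2% and 24.2% of all genes, with a median log2 ratio of -0.05 against -0.19. For pre-B against pro-B cells 10 of 112 were higher and 36 lower (8.93% and 32.1%, against 14.8% and 31.4% of all genes). For immature B against pre-B cells 10 of 93 were higher and 21 lower (10.8% and 22.6%, against 18.9% and 20.2%). For mature B against immature B cells 32 of 104 were higher and 10 lower (30.8% and 9.62%, against 26.7% and 18.1%). The single lists below are counted between mature B and pro-B cells, where 13.2% of all genes were higher and 24.2% lower. Each holds few genes, so its counts are a description.

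Of the 6 other class I PI3K subunits compared between mature B and pro-B cells, 2 were lower and none higher. Pik3cg had 231 counts in pro-B and 85.8 in mature B cells, 2.64-fold lower on CPM (2.04 to 3.41), and Pik3r6, a regulatory subunit of p110gamma, had 20 and 2 counts, 9.79-fold lower (2.38 to 86.4). Among the 4 class II and III genes Pik3c2b was the 1 gene called, with 65, 32, 52 and 312 counts and a level 4.90-fold higher in mature B than pro-B cells (3.74 to 6.51). Its CPM was higher at each later stage, but its FPKM was 1.53, 2.77, 2.05 and 10.7.

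Of the 14 receptors and adaptors upstream of PI3K, 1 was higher and 5 lower (7.14% and 35.7%, against 13.2% and 24.2% of all genes). The tyrosine kinase Syk had the most counts (657 in pro-B and 816 in mature B cells) and differed 1.27-fold (1.14 to 1.41). Bank1 was 26.7-fold higher in mature B cells (19.7 to 37.2). The docking proteins Gab1 and Gab2 were lower, from 46 to 2 counts (22.5-fold, 5.89 to 191) and from 78 to 6 counts (12.7-fold, 5.59 to 35.7). With Irs1 at 38 and 0 counts, 3 docking proteins for PI3K were lower in mature B cells while Irs2 and Bank1 were higher.

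Among 9 phosphoinositide phosphatases compared, 1 was lower and none higher. Inpp4a, which acts on the product of SHIP1, had 133 and 50 counts in pro-B and mature B cells and was 2.60-fold lower on CPM (1.87 to 3.68), but its FPKM was 6.44 and 7.08. Of 11 phosphoinositide kinases, 1 was higher and 1 lower on CPM, and neither call held on FPKM. Pi4ka went from 5.75 to 21.6 counts (3.85-fold higher, 1.47 to 11.3) with 0.73 and 0.62 FPKM. Pip5k1c went from 86.2 to 18.5 counts (4.57-fold lower, 2.79 to 8.26) with 5.15 and 4.97 FPKM. Pikfyve, with the most counts, was 1.61-fold higher (1.23 to 2.11).

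Of 12 AKT kinases, activators and phosphatases, 2 were higher and 3 lower. The kinase Sgk1, a relative of AKT, had 183, 25, 6 and 22 counts and was 8.14-fold lower in mature B than pro-B cells (5.22 to 13.3). Trib3, a pseudokinase that binds AKT, had 16 counts in pro-B and 0 in the other libraries, at least 5.22-fold lower against the floor, with a counting limit of 3.77-fold. Phlpp2, a phosphatase of AKT, was 2.79-fold higher (1.76 to 4.56) and Trib2 2.26-fold higher on CPM (1.62 to 3.20), although its FPKM of 3.45 and 6.34 differed by less than 2-fold. Rictor, the defining subunit of mTORC2, which phosphorylates AKT, had 267 and 275 counts, a ratio of 1.05 (0.89 to 1.25).

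Of 14 AKT and mTORC1 effectors, none was higher and 2 were lower. Ddit4, an inhibitor of mTORC1, had 67, 39, 4 and 3 counts and was 21.9-fold lower in mature B cells (7.16 to 109). Bad, a pro-apoptotic AKT substrate, had 12 and 4 counts and a ratio whose interval included 1 (2.94-fold lower, 0.89 to 12.5). Rps6, the ribosomal protein with the most counts of the list, was 1.56-fold higher (1.42 to 1.72). Among 9 PIP3-binding effectors, Plcg2 was 2.61-fold higher (2.04 to 3.37) and Plekha2 3.64-fold lower (2.902 to 4.64), while Dock2, with the most counts, was 1.59-fold higher (1.45 to 1.73).

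Of 11 FOXO factors and regulators, none was higher and 2 were lower, Ywhaq (14-3-3 theta) by 2.53-fold (2.04 to 3.16) and the arginine methyltransferase Prmt1 by 2.05-fold (1.40 to 3.04). Ywhaz (14-3-3 zeta), which holds phosphorylated FOXO in the cytoplasm, had the most counts and a ratio of 1.18 (1.07 to 1.29).

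Of 24 FOXO target genes compared, 5 were higher and 9 lower in mature B than pro-B cells, or 20.8% and 37.5% against 13.2% and 24.2% of all genes. The list does not separate targets that FOXO factors activate from targets that they repress, so these counts give no direction of FOXO activity. Those lower were Il7r, Rag1, Rag2, Bcl2l11, Bbc3, Ccnd2, Ccnd3, Blnk and Cat, and those higher included S1pr1, Ccr7, Bcl6 and Sesn1. Il7r, the interleukin-7 receptor, had 189, 32, 8 and 2 counts and was 92.5-fold lower (25.2 to 769). Rag1, the recombinase, had 797, 89.4, 0 and 1 counts and was 780-fold lower (140 to 30844). Rag2 works with Rag1, and Ccnd2 and Ccnd3 are D-type cyclins. S1pr1 and Ccr7 are receptors that steer lymphocyte migration. Ccr7 had 107, 84, 154 and 1088 counts and was 10.4-fold higher (8.51 to 12.8). Il7r, Rag1 and Rag2 are also among the stage markers used to check the labels.

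**Figure D4:**
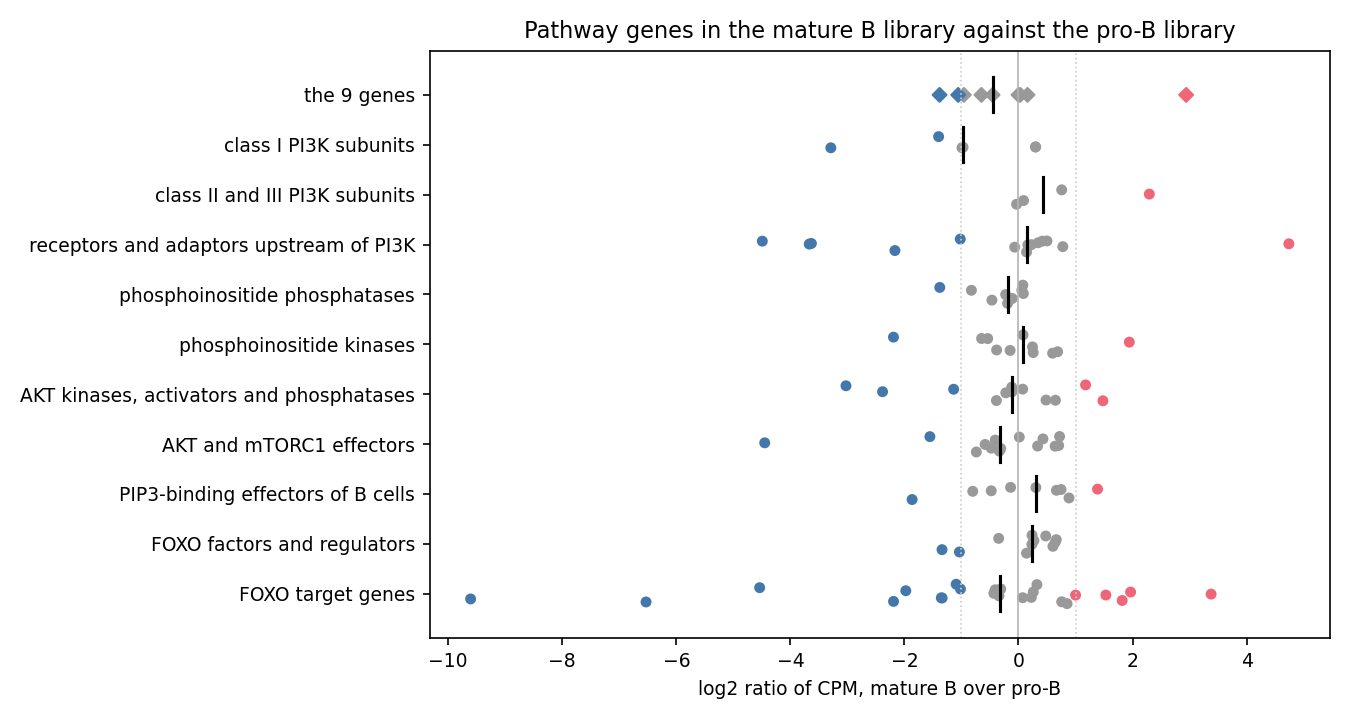
Log2 CPM ratio of mature B over pro-B cells for the 9 genes (diamonds) and for the compared genes of the 10 pathway lists (points), with the median of each as a black bar, 2-fold as dotted lines and genes past it in red (higher) or blue (lower); genes with 0 counts in 1 library are drawn at the floor of 3 counts. The FOXO target genes span the widest range, with 5 higher and 9 lower, and Irs2 is the diamond on the right.

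The genes whose profile was most like a member's were found among 4737 genes with at least 100 counts over the 4 libraries, by Euclidean distance of centred log2(CPM + 1) over the 4 stages. Nearest to Foxo1 were Qrich1 (distance 0.07; 157, 27, 19 and 175 counts), Mxd1 (0.07) and Ythdf3 (0.09). Nearest to Pik3ip1 were Pnrc1 (0.05; 283, 99.7, 108 and 278 counts), Entr1 (0.11) and Ube2d3 (0.11). With 4 stages and 1 library each, such likeness is a description of the profiles.

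Promoters were searched for TGTTTAC, the core that FOXO factors and other forkhead proteins bind, on both strands of the RefSeq windows from 250 bases before to 50 after each start site (GRCm38.p6). All 9 members matched, with 13 windows in all, and 1 window held the motif, that of Akt1. It is shown because Akt1 is the kinase that acts on FOXO, with the motif in capitals on the strand of the gene (minus):
Akt1 chr12:112675028-112675056: atctaccctctTGTTTACactcctggtga
The motif began 161 bases before the start site. It was found in 1199 of 32851 windows, or 3.65%, so 1 of 13 is no more than a description, and no value here bears on binding.

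The circular RNA table listed 1005 circRNAs, of which 11 were annotated to 6 of the 9 genes, 5 of them on the opposite strand. They had 49 back-spliced reads in all, 18 in pro-B, 17 in pre-B, 7 in immature B and 7 in mature B cells, and each had between 3 and 8 reads. For 10 of the 11 the reads were in 1 library. The annotation of the files placed 5 in introns, 5 antisense to the gene and 1, from Pik3r1, in 1 exon. Inpp5d and Irs2 had antisense entries alone. The largest, with 8 reads in pre-B cells, was intronic in Foxo1 (chromosome 3, 52314390 to 52315178, plus strand, as deposited). Pik3ap1 had the 1 circRNA with reads in more than 1 library, 2 in pro-B and 3 in immature B cells (chromosome 19, 41356170 to 41363941, minus strand). All 11 lay inside the GRCm38 span of their gene. At such counts the circRNAs were not compared between stages. Pik3cd, Pik3ip1 and Akt1 had no circRNA in the table.

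MicroRNAs with published targets in the pathway were read from the small RNA libraries, which held 926605 miRNA tags in pro-B, 1673129 in pre-B, 2411323 in immature B and 1226208 in mature B cells. Of 19 miRNAs listed, 18 were in the table, 14 had at least 100 tags in some library and 17 had a RefSeq sequence. Of these 14, 7 have their listed targets among the 9 genes, Irs1 and Pik3r2, and the 6 of them with the widest range between libraries are printed here. Capitals mark the seed, bases 2 to 8.
mmu-miR-29a-3p: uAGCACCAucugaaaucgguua
mmu-miR-29b-3p: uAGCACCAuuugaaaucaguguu
mmu-miR-182-5p: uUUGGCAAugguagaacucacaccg
mmu-miR-126a-3p: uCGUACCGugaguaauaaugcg
mmu-miR-27a-3p: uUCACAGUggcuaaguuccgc
mmu-miR-155-5p: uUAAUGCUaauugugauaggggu
The miR-29 pair, which share the seed AGCACCA and target Pik3r1, were highest in mature B cells. Levels are tags per 1000000 miRNA tags of the library. mmu-miR-29a-3p had 3269 in pro-B, 1668 in pre-B, 2402 in immature B and 12451 in mature B cells, 3.81-fold higher in mature B than pro-B (3.66 to 3.96). mmu-miR-29b-3p had 60.4, 16.1, 19.9 and 184, 3.05-fold higher (2.27 to 4.16). Both had their lowest value in pre-B cells. Pik3r1 had CPM values of 259, 78.4, 55.0 and 133 in the same order of stages.

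mmu-miR-182-5p, which targets Foxo1, had levels of 113, 56.2, 18.2 and 62.8, lowest in immature B cells, where the CPM of Foxo1 had its lowest value as well. mmu-miR-27a-3p, a further miRNA of Foxo1, had 3082, 1697, 1305 and 1329, 2.32-fold lower in mature B than pro-B (2.18 to 2.47), where Foxo1 CPM differed 1.12-fold. mmu-miR-126a-3p, with targets Irs1 and Pik3r2, was highest in pro-B cells at 1012 and had 494, 114 and 122 in the later stages, 8.33-fold lower in mature B than pro-B (7.001 to 9.97). mmu-miR-155-5p, the miRNA of Inpp5d, had 91.7, 79.5, 109 and 139, 1.51-fold higher in mature B cells (1.16 to 1.98), where Inpp5d CPM was 1.37-fold lower. The RNA and small RNA libraries are separate, and no miRNA was tested against its target.

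**Figure D5:**
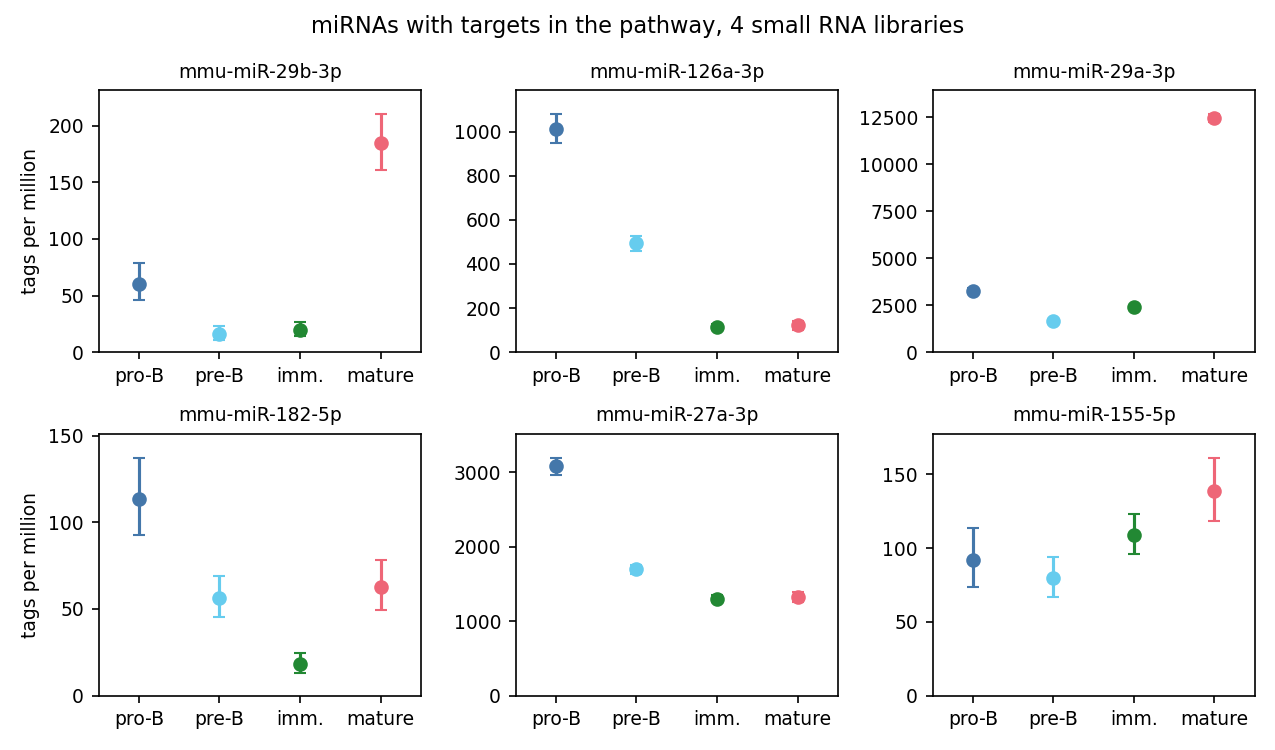
Tags per 1000000 miRNA tags of 6 miRNAs with published targets in the pathway, in the 4 small RNA libraries (one panel each, linear axis from 0), with exact Poisson 95% intervals. mmu-miR-29a-3p and mmu-miR-29b-3p were highest in mature B cells at 12451 and 184, and mmu-miR-126a-3p and mmu-miR-27a-3p were highest in pro-B cells at 1012 and 3082.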

How the data were processed

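RNA and small RNA were measured in 8 libraries, 1 of each kind per stage. The authors deposited estimated counts and FPKM per mRNA, counts per lncRNA and circRNA, and tag counts and TPM per miRNA. Their notes name Bowtie 0.12.2 and mm9, whereas the circRNA coordinates lay within GRCm38 gene spans. The methods of the paper name HISAT2 for mapping, StringTie for transcript abundance and find_circ for circRNAs. The 9 genes and the lists were chosen with earlier results of these data known. Here each count was divided by its column total and multiplied by 1000000 (CPM). Counts were rounded for intervals and for edgeR. Ratios were called at 2-fold or more with at least 10 counts in 1 library, and a count of 0 was set to the floor of 3. The text names all 9 members, the gene with the most counts in each list and up to 2 genes in each direction with the largest ratio of mature B to pro-B cells past 2-fold, 3 nearest profiles for Foxo1 and Pik3ip1, and up to 6 miRNAs with at least 100 tags. Some genes that this rule names, and the miRNAs listed for them, are not reported here, although counts over lists include them. Family members were added for comparison of isoforms. Alternatives were FPKM, TMM factors of edgeR 4.0.16, size factors of DESeq2 1.42.0, mRNA plus lncRNA totals, no minimum count, at least 30 counts, intervals that exclude 1, an edgeR exact test with dispersion 0.0001, deposited TPM for miRNAs and, added after seeing the data, 4 length classes among genes with at least 40 counts and 2 FPKM. Intervals of count ratios between genes of 1 library used the normal approximation on the log scale. The calls were also run on simulated Poisson counts, for mature B against pro-B cells only. That simulation held no replicate variation and no trend with transcript length, so it does not bear on either. Python 3.11.15 and R 4.3.3 were used. Because 1 library stands for each stage, no replicate variation enters any interval.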

Additional observations from a re-analysis of the deposited data

How the results depend on the processing

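No paired analysis was possible because each stage had 1 RNA library. The counts called moved most with the scale. For pre-B against pro-B cells, 4 members and 46 listed pathway genes were past 2-fold on CPM, and these became 9 and 96 on FPKM and 9 and 102 on mRNA plus lncRNA totals. Subtracting the median of the length class left 1 member. For immature B against pre-B cells, requiring at least 30 counts left 0 of 7 members and 16 listed genes in place of 1 and 31, since fewer genes were then compared. For mature B against immature B cells, 3 members and 42 listed genes became 9 and 92 on FPKM and 9 and 95 on mRNA plus lncRNA totals. TMM gave 5 members because Pik3cd and Foxo3 crossed 2-fold. On mRNA plus lncRNA totals and with TMM, the share of all genes past 2-fold was not counted. The counts on those scales are therefore not a result about the members. For mature B against pro-B cells, the counts of members and listed genes stayed within 1.5 times under every alternative run, but TMM and DESeq2 factors took Pik3ap1 under 2-fold and left 1 member lower in place of 2. The mRNA share of counts differed between libraries as given above. On mRNA plus lncRNA totals the median log2 ratio of all genes with counts in both libraries was -2.24 for pre-B against pro-B cells. It was 2.07 for mature B against immature B cells, and the FPKM medians were -2.18 and 1.99. The part of the mRNA share in the shifts between scales was not tested. The low mRNA totals of the pre-B and immature B libraries set the precision, with intervals of members such as Pik3r1 spanning several-fold. Members' directions were the same under all scalings except for Pik3cd, Pik3ap1, Pik3ip1, Akt1 and Foxo1 in pre-B against pro-B, Pik3r1 in immature B against pre-B, Pik3ap1, Pik3ip1 and Akt1 in mature B against immature B, and Pik3ip1 and Foxo3 in mature B against pro-B cells.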
